A study of Mus musculus with 96 samples.

Results

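The time of day program of the sleep-deprived liver was followed in 12 of the 96 RNA sequencing libraries of the study. These were all libraries that the labels give as liver after sleep deprivation (SD), 2 at each of the circadian times CT4, CT8, CT12, CT16, CT20 and CT24. The mice were wild-type C57BL/6 males of 6 to 8 weeks, kept under a light and dark cycle and moved to constant darkness before collection. SD animals were kept moving for 10 h of their rest phase in a slowly turning drum with food and water, and the organs were taken at the circadian times that followed. The 12 control liver libraries (CON) came from undisturbed mice of the same strain, sex and genotype at the same times. Libraries were made from whole liver, so a lower level of an RNA and a smaller share of the cells that carry it cannot be told apart. Because all SD times followed a single deprivation, the time of day and the hours since the drum stopped cannot be told apart either, and 1 cycle was sampled. The listed time in darkness runs 4 h behind the circadian time in the titles, and the titles were used.

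Nearly every cell carries a circadian clock made of transcription factors that switch one another on and off over a day. CLOCK and its partner BMAL1 (gene Arntl) switch on the Per and Cry genes, whose products then block them, and the REV-ERB receptors (Nr1d1 and Nr1d2) repress Arntl in a linked loop. In the liver this clock, together with feeding, body temperature and hormones, times the genes of bile acid, lipid, glucose and drug metabolism. Circadian time counts hours from the start of the animals' subjective day. By the titles, CT4 and CT8 would fall in the rest phase and CT16 and CT20 in the active phase. They are called day and night here as names for these title times only. Whether the title times match the animals' own rest and activity was not tested.

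The 12 SD libraries held 32.0 to 43.9 M counts (M, 1000000) and the 12 CON libraries 32.4 to 48.9 M. Levels are given as counts scaled to a library total of 1000000 (CPM), and differences as log2 of night over day after TMM scaling. Adjusted p-values come from edgeR's quasi-likelihood F-test with Benjamini-Hochberg adjustment over all genes tested, and a gene was called at an adjusted p under 0.05. All 10 hepatocyte markers were present, with a sum of 96828 to 117840 CPM, while 5 of 8 markers of pancreas, gut and fat were at 0 in every SD library. One library stood apart from the rest. In replicate 1 of SD at CT16, 1354 genes lay over 2-fold from the other replicate, against 153 to 247 in the other 5 SD pairs. Genes longer than 100 kb took 13.4% of its counts against 10.3% to 10.8% in the other SD libraries and 12.4% and 12.4% in CON at CT16, and its hepatocyte markers summed to the lowest value of the 12. Its cholangiocyte markers summed to 159.8 CPM against 41.5 to 96.6 CPM, and its stellate and fibroblast markers to 1259 CPM against 580.2 to 829 CPM. Night against day counts over all genes and over the gene lists are also given without it where they differ.

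A few short DNA elements are known to carry clock signals to promoters. Some matches to their letters just ahead of clock genes are shown here because the timing of these genes opens the results. The E-box CACGTG is bound by CLOCK and BMAL1, the D-box TTATGNAA by TEF, HLF, DBP and NFIL3, and AGGTCA is the core of the ROR and REV-ERB element (RORE). Sequences are from RefSeq promoters on GRCm38.p6, each printed 5′ to 3′ on the strand of its gene with the element in capitals and the distance of its first base from the start site. TGACCT is the RORE core read on the other strand. Only the letters of this core were matched and not the bases beside it, so a match need not be a full RORE. Among the matches not printed, Per1 also held a D-box (-24) and a RORE core (-137), and Per3 a further D-box (-158). Nfil3 (-12) and Arntl (32) held a RORE core.
Per1 E-box (chr11:69098757-69098816, plus strand, first base at -166): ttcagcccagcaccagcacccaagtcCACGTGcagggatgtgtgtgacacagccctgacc
Cry1 E-box (chr10:85185081-85185140, minus strand, first base at -60): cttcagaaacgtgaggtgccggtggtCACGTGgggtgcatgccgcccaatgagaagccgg
Ciart E-box (chr3:95882239-95882298, minus strand, first base at -44): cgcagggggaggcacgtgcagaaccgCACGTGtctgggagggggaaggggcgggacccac
Tef E-box (chr15:81802520-81802579, plus strand, first base at -127): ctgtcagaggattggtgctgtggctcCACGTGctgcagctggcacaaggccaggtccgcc
Bhlhe41 E-box (chr6:145865540-145865599, minus strand, first base at -153): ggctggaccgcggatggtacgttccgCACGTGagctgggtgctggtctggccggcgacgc
Per3 D-box (chr4:151044837-151044896, minus strand, first base at -205): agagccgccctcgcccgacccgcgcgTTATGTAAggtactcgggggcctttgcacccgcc
Nr1d2 RORE core (chr14:18239150-18239209, minus strand, first base at -77): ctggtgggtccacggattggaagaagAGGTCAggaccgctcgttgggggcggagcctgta
Clock RORE core (chr5:76303588-76303647, minus strand, first base at -119): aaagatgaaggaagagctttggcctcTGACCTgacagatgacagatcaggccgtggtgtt
Windows of 250 bases before to 50 bases after the start were found for 16 of the 19 listed clock genes, in 21 promoters. On either strand, 6 of these (28.6%) held the E-box, 2 (9.52%) the D-box and 5 (23.8%) the RORE core. Over all 32851 promoters in the table the shares were 7.15%, 3.38% and 16.3%. These matches describe the letters only and were not tested.

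The clock genes cycled in the SD liver, with 3 of 5 activators lower at night and 6 of 8 repressors higher. Arntl (Bmal1), the partner of CLOCK, read 37.99 and 42.5 CPM at CT4, 45.1 and 45.3 at CT8, 25.9 and 11.1 at CT12, 7.52 and 3.89 at CT16, 4.91 and 4.60 at CT20 and 27.5 and 19.3 at CT24. The 4 day libraries were all above the 4 night libraries, and the night minus day log2 difference was -3.14 ± 0.24 (SE), adjusted p = 1.79e-05. Npas2, which can take the place of CLOCK, read 3.10 and 6.14 CPM at CT4, 12.7 and 11.8 at CT8, 4.99 and 2.06 at CT12, 0.312 and 0.333 at CT16, 0.118 and 0.0852 at CT20 and 0.354 and 0.103 at CT24. It was nearly absent from CT16 to CT24, so its log2 difference of -5.43 ± 0.41 depends on small counts. Clock itself moved far less, from 131 CPM at CT8 to 70.4 CPM at CT20 as means of 2 libraries (-0.76 ± 0.091 (SE), adjusted p = 0.000451). Rora, a receptor that activates Arntl, showed no 24 h rhythm past the threshold (adjusted p = 0.759 in edgeR).

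Among the repressors, 6 of 8 were higher at night and Cry1 was lower, against 3.12% of all genes higher and 4.35% lower. Nr1d1 (REV-ERB alpha) read 3.39 and 2.98 CPM at CT4, 7.83 and 5.48 at CT8, 66.7 and 91.8 at CT12, 85.8 and 94.1 at CT16, 22.6 and 14.2 at CT20 and 4.07 and 4.86 at CT24. It was already high at CT12 and fell between CT16 and CT20, and the night libraries lay 3.05 ± 0.19 log2 above the day libraries without overlap (adjusted p = 7.79e-06). Nr1d2 (REV-ERB beta), with the RORE core shown above, followed later with 35.7 and 21.7 CPM at CT4, 25.8 and 26.8 at CT8, 98.6 and 127 at CT12, 292 and 222 at CT16, 211 and 176 at CT20 and 51.7 and 78.0 at CT24. In means of the 2 libraries Per3 was highest at CT16 and Per1 and Per2 at CT24. Per2, a negative limb protein that also responds to hormones and temperature, read 36.01 and 39.5 CPM at CT4, 17.2 and 19.9 at CT8, 14.2 and 24.4 at CT12, 82.7 and 35.1 at CT16, 64.6 and 90.4 at CT20 and 114 and 88.6 at CT24. Replicate 2 of CT16 lay inside the day range, and the difference was 1.24 ± 0.22 (SE), adjusted p = 0.00518. Per1 read 26.4 and 14.1 CPM at CT4, 4.04 and 7.21 at CT8, 3.90 and 9.65 at CT12, 30.8 and 30.5 at CT16, 42.6 and 50.4 at CT20 and 54.2 and 45.8 at CT24, a difference of 1.73 ± 0.27 (SE), adjusted p = 0.00263, and every night library was above every day library. Per3, whose promoter held the D-box shown above, read 25.2 and 15.4 CPM at CT4, 5.50 and 8.81 at CT8, 6.99 and 16.3 at CT12, 128 and 51.5 at CT16, 70.1 and 69.3 at CT20 and 36.1 and 37.3 at CT24. It was lowest at CT8, and the difference was 2.59 ± 0.30 (SE), adjusted p = 0.000339. Ciart, a repressor of CLOCK and BMAL1 whose promoter held 3 E-boxes, rose from 0.159 CPM at CT8 to 7.45 CPM at CT16 (4.35 ± 0.39 (SE), adjusted p = 6.15e-05). Cry1, the late repressor, read 61.7 and 70.9 CPM at CT4, 37.2 and 45.7 at CT8, 12.1 and 8.92 at CT12, 10.8 and 8.38 at CT16, 25.99 and 28.2 at CT20 and 48.5 and 53.9 at CT24. It was the only repressor of the 8 that passed the test in the lower direction (-1.80 ± 0.12 (SE), adjusted p = 8.29e-06), while Cry2 did not pass it (0.28 ± 0.13 (SE), adjusted p = 0.23).

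The factors that carry clock time to other genes also divided between day and night. Tef, an activator at D-boxes, read 131 and 108 CPM at CT4, 41.2 and 54.5 at CT8, 66.5 and 104 at CT12, 341 and 231 at CT16, 279 and 270.3 at CT20 and 155 and 184 at CT24. Nfil3, the repressor at the same sites, was high in the day libraries (43.2 to 60.3 CPM) and low in the night libraries (12.1 to 20.8 CPM), a difference of -1.77 ± 0.20 (SE), adjusted p = 0.000315. Hlf, a second activator at D-boxes, and Bhlhe41, a repressor that competes at E-boxes, were higher at night by 0.65 ± 0.082 and 1.83 ± 0.35 log2. Bhlhe40 did not pass the test (0.24 ± 0.29 (SE), adjusted p = 0.656). Dbp was counted at no more than 0.295 CPM in these libraries and was not tested.

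**Figure D1:**
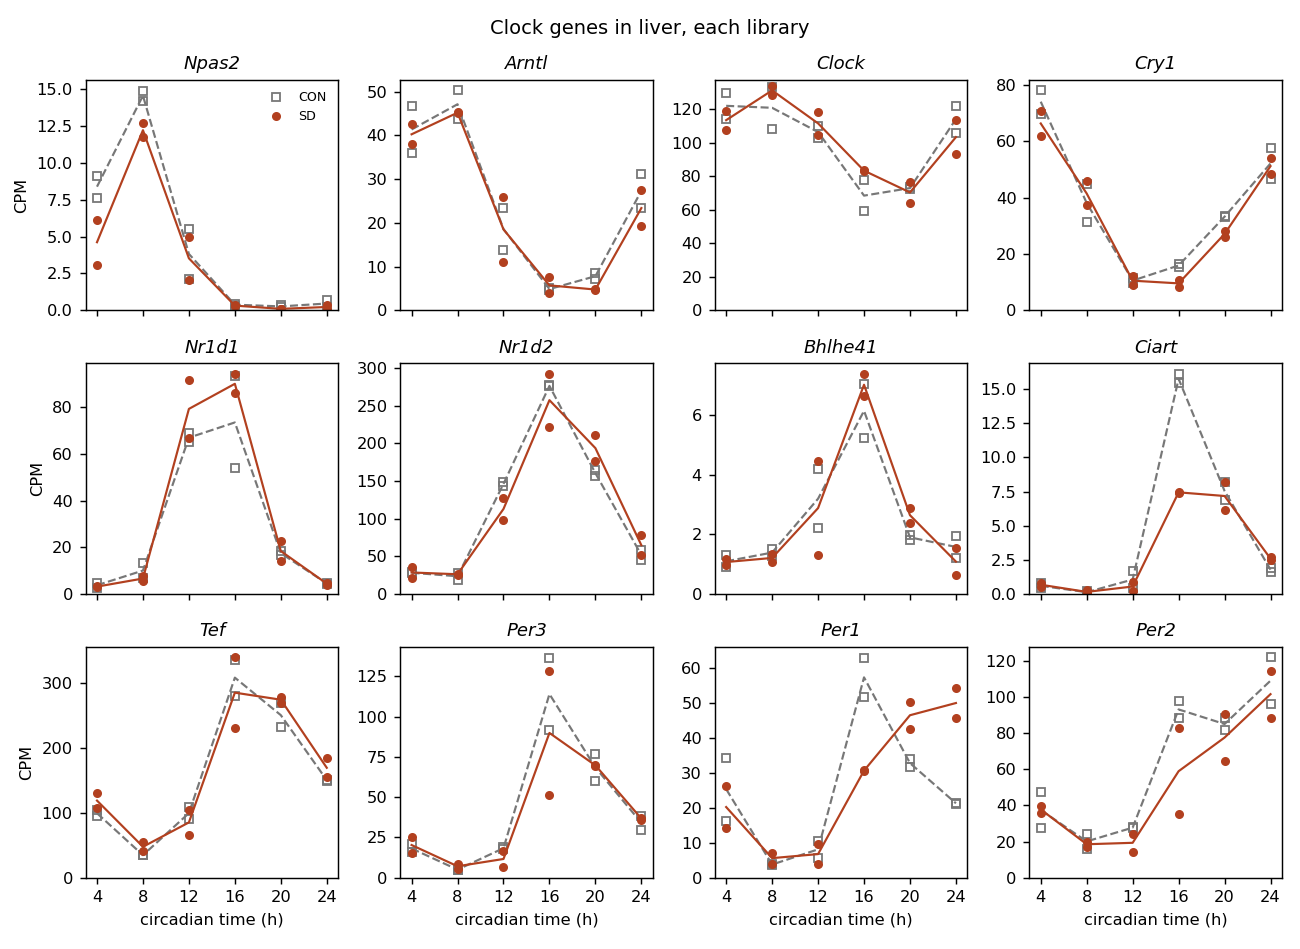
Levels of 12 clock genes in the liver by circadian time (h) in CPM on linear axes, with SD libraries as filled circles and CON libraries as open squares, 2 per time, and lines through the means. Arntl and Npas2 were high at CT4 and CT8, Nr1d1 at CT12 and CT16, Nr1d2 and Tef at CT16 and CT20, and Per1 and Per2 at CT24.

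The peak times of a 24 h cosine fit put these genes in order. Npas2 peaked at CT7.97 ± 0.284 h (SE), then Nr1d1 at CT14.9 ± 0.311 h, Bhlhe41 at CT15.9 ± 0.819 h, Nr1d2 at CT17.4 ± 0.300 h, Ciart at CT19.7 ± 0.464 h, Per3 at CT19.99 ± 0.615 h, Tef at CT20.03 ± 0.545 h, Per1 at CT21.7 ± 0.462 h, Per2 at CT21.9 ± 0.455 h, Cry1 at CT2.75 ± 0.299 h, Nfil3 at CT5.52 ± 0.543 h and Arntl at CT5.71 ± 0.374 h. Of the neighbours in this order, Nr1d1 and Bhlhe41, Ciart, Per3 and Tef, Per1 and Per2, and Nfil3 and Arntl lay within the sum of their errors, and the other gaps were larger. In all, 15 of the 18 clock genes tested had a 24 h rhythm at an adjusted p under 0.05, against 12.9% of all genes. CON liver had a rhythm in 14 of them too, against 9.13% of all CON genes. All 14 of these peaked later in SD, by 0.277 to 1.52 h with a median of 0.611 h. Arntl, for example, peaked at CT5.21 ± 0.363 h in CON. Over all 1019 genes rhythmic in both conditions, 685 peaked later in SD, and the median shift was 0.518 h. The test of the cosine and sine terms between SD and CON passed an unadjusted p under 0.05 for 0 of the 18 clock genes in edgeR. None of these shifts thus passed the test gene by gene.

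With the clock genes included, 2410 of 18664 genes tested (12.9%) had a 24 h rhythm in the SD liver. Their amplitude, the log2 distance from the fitted mean to the peak, had a median of 0.40 and exceeded 1 in 223 genes. The rhythm count depends on the test. The authors used JTK_CYCLE, and a JTK_CYCLE procedure on CPM called 347 genes here. The night against day comparison called 1393 genes (7.46%), 582 higher at night and 811 lower. Of the higher genes 132 differed 2-fold or more, and of the lower genes 178. The CPM ranges of the 4 day and 4 night libraries did not overlap in 1062 of the called genes, and in 14.5% of all genes. The split between directions depends on the scaling, since library totals alone in place of TMM called 1689 genes with 64.5% higher, against 41.8% with TMM. Without replicate 1 of CT16 the comparison called 1412 genes, 668 higher and 744 lower, of which 1099 were called with all 12 libraries. Leaving out replicate 2 of CT16 instead gave 3963 calls, and leaving out replicate 2 of CT4 gave 552, the fewest of the 12 such fits.

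Under the naming rule, the largest rises from day to night joined clock genes with regulators of signalling and fat. Rgs16, a brake on G-protein signalling, lies on chromosome 1, 153740349 to 153745468 (GRCm38) and read 0.592 and 0.205 CPM at CT4, 3.11 and 0.467 at CT8, 3.18 and 21.8 at CT12, 99.7 and 138 at CT16, 18.7 and 11.2 at CT20 and 1.27 and 6.02 at CT24. Every night library was above every day library, which the naming rule required of the 8 rises and 8 falls. The log2 difference of 5.51 ± 0.74 (SE), adjusted p = 0.001 was the largest rise among the genes of the naming rule. Usp2, a deubiquitinating enzyme (chromosome 9, 44067021 to 44095627), read 17.7 and 17.7 CPM at CT4, 4.52 and 6.10 at CT8, 2.69 and 5.11 at CT12, 40.0 and 38.7 at CT16, 81.1 and 72.9 at CT20 and 41.8 and 51.6 at CT24, a difference of 2.41 ± 0.18 (SE), adjusted p = 1.79e-05. It was highest at CT20 and stayed above its day level at CT24. Lpin1, which makes diacylglycerol and also coactivates fat oxidation genes, differed by 1.99 ± 0.40 (SE), adjusted p = 0.012, and its call was lost without replicate 2 of CT4 or replicate 1 of CT8. Angptl4, an inhibitor of lipoprotein lipase, read 48.0, 16.6, 23.0 and 14.9 CPM in the day libraries and 71.5, 163, 72.7 and 70.8 CPM in the night libraries. The highest was replicate 2 of CT16, and the other 3 night libraries were also above the day libraries (1.82 ± 0.34 (SE), adjusted p = 0.008). Trib3, a stress-induced pseudokinase, rose by 1.79 ± 0.33 log2, and the other 3 of the 8 largest rises were Nr1d1, Nr1d2 and Per3.

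Among the largest falls under the same rule were a tubulin, an elongase of fatty acids and an enzyme of drug metabolism. Tubb2a, a beta tubulin (chromosome 13, 34074274 to 34078007), read 45.4 and 81.4 CPM at CT4, 89.7 and 94.7 at CT8, 32.1 and 32.8 at CT12, 8.52 and 8.30 at CT16, 5.54 and 9.09 at CT20 and 34.7 and 29.9 at CT24. Its lowest day library lay well above its highest night library, and lack of overlap was a condition of the naming rule. The difference was -3.38 ± 0.19 (SE), adjusted p = 4.29e-06. Elovl3, an elongase of very long chain fatty acids (chromosome 19, 46131897 to 46135694), read 240.2 and 440.1 CPM at CT4, 529 and 195 at CT8, 429 and 237 at CT12, 45.3 and 76.8 at CT16, 15.4 and 35.3 at CT20 and 107 and 60.4 at CT24. Its mean at CT12 was close to those at CT4 and CT8, and the night libraries were lower (-3.23 ± 0.40 (SE), adjusted p = 0.000564). Pitx3, a homeobox factor (chromosome 19, 46135685 to 46148326), lies on the other strand, and its span shares a few bases with the end of Elovl3. Its night minus day difference was -3.33 ± 0.41 (SE), adjusted p = 0.000578, and its value is uncertain where reads run over the shared end, although the counting used strand. Cyp2b10, a drug-metabolising enzyme and target of the receptor CAR, read 22.1, 10.0, 18.1 and 16.9 CPM in the day libraries and 1.28, 2.203, 3.76 and 4.54 CPM in the night libraries, a difference of -2.72 ± 0.43 (SE), adjusted p = 0.00265. Ppard, a nuclear receptor for fatty acids, lay at 19.2 to 37.6 CPM by day and 5.10 to 7.70 CPM by night (-2.25 ± 0.15 (SE), adjusted p = 8.29e-06). Loxl4, an enzyme that crosslinks matrix proteins, and Slc34a2, a phosphate transporter, were lower at night, with log2 differences of -3.04 ± 0.26 and -2.67 ± 0.20, and Arntl completed the 8. Except for Lpin1, all 16 genes kept their call under every alternative that was run.

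**Figure D2:**
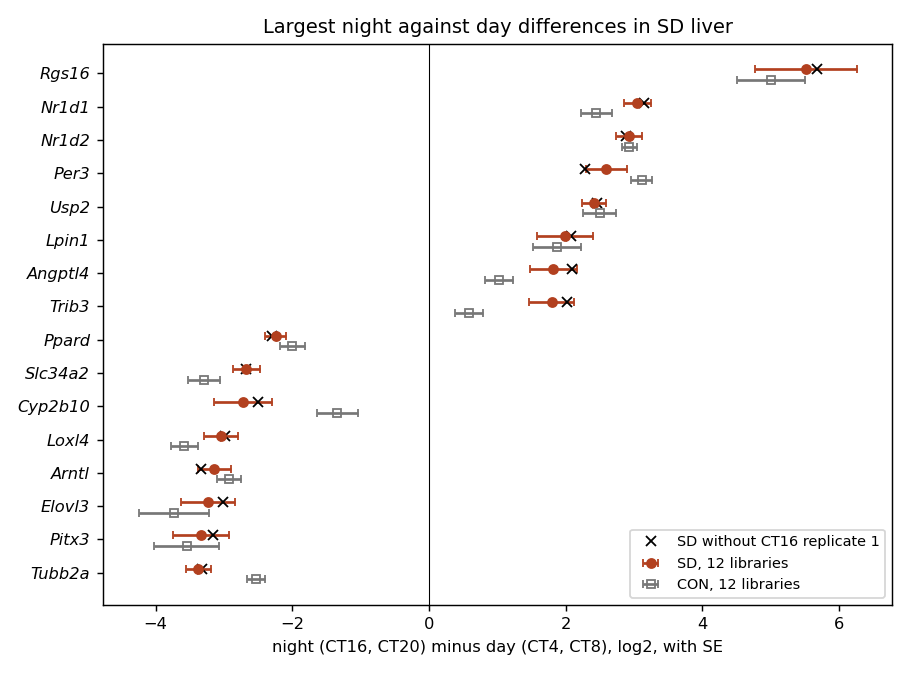
Night minus day log2 difference (CT16 and CT20 against CT4 and CT8) of the 8 largest rises and 8 largest falls of the naming rule in SD liver. The rule took called protein-coding genes with a mean of 5 CPM or more and no overlap between day and night. Bars are SE, crosses the value without replicate 1 of CT16 and squares the value in CON liver. Values run from -3.38 for Tubb2a to 5.51 for Rgs16, and each gene has the same sign in CON.

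Control liver gave the same direction for these 16 genes, with Rgs16 at 5.002 ± 0.50, Tubb2a at -2.53 ± 0.13, Cyp2b10 at -1.34 ± 0.30 and Trib3 at 0.58 ± 0.21 log2. Across all genes, 10.8% were called in CON and 7.46% in SD. Of the SD calls 58.3% were also called in CON, and of the CON calls 39.1% in SD. The difference of the night minus day contrast between SD and CON was tested in 19708 genes, of which edgeR called 0 after adjustment, 949 (4.82%) passed an unadjusted p under 0.05, and DESeq2 called 9. The 3 genes with the smallest p in that test were Prrc1, Acsm5 and Serpinh1. Prrc1 differed by 0.30 ± 0.092 in SD and -0.35 ± 0.092 in CON, and Acsm5, which activates medium-chain fatty acids, by 0.016 ± 0.092 and 0.60 ± 0.087. Serpinh1, a collagen chaperone that responds to heat, had a night minus day difference of -0.16 ± 0.10 in SD and -0.71 ± 0.08 in CON, with an adjusted p of 0.75 for the difference between them.

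Peak times of rhythmic genes were spread over the whole cycle in the SD liver. The windows centred on CT4, CT8, CT12, CT16, CT20 and CT24 held 438, 419, 419, 311, 366 and 457 of the 2410 genes, and without replicate 1 of CT16 445, 586, 658, 447, 579 and 723. The CT12 window held 17.4% of the SD genes and 8.56% of the 1752 CON genes. The CT4 window held 18.2% in SD and 28.8% in CON. These shares describe the called genes of each condition and the difference between them was not tested. For the 1019 genes called in both conditions, the SD peak minus the CON peak had a median of 0.518 h with quartiles of -0.242 and 1.21 h, and 89.4% of these genes peaked within 2 h of their CON time. A test of the cosine and sine terms between conditions called 0 of 19708 genes in edgeR and 722 at an unadjusted p under 0.05. The error of a single peak time was sizeable, with a median SE of 0.755 h.

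**Figure D3:**
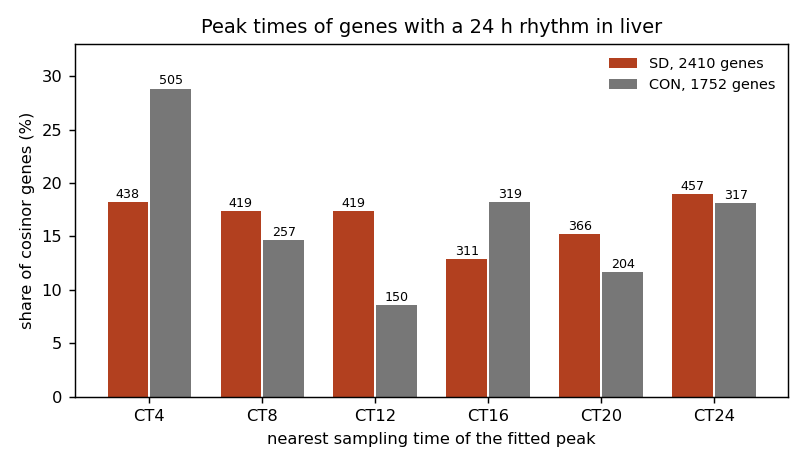
Share of the genes with a 24 h rhythm (%) whose fitted peak falls in each window of 4 h, for SD and CON liver, with the number of genes on each bar. The SD shares run from 12.9% at CT16 to 19.0% at CT24, and the CON shares from 8.56% at CT12 to 28.8% at CT4.

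The genes of largest amplitude differed in kind from window to window. At CT4 and CT8 they were Arntl, Cyp2b10, Tubb2a, Elovl3 and Pitx3, described above, and Mup16, one of the major urinary proteins. Mup16 read 148 and 31.2 CPM at CT4, 0.393 and 105 at CT8, 10.4 and 1.44 at CT12, 1.65 and 3.20 at CT16, 6.37 and 2.499 at CT20 and 4.84 and 1.78 at CT24. The Mup genes are near-identical copies, and reads that fit several places were removed, so their values are uncertain. At CT12 the leading genes were Arrdc3, Egr1 and Klf10. Arrdc3, an arrestin relative that limits adrenergic signalling, read 70.7 and 76.5 CPM at CT4, 284 and 71.0 at CT8, 175 and 329 at CT12, 741 and 334 at CT16, 113 and 60.1 at CT20 and 75.4 and 39.9 at CT24. Its replicates differed widely at CT16, and the fitted peak lay at CT13.5 ± 0.913 h with an amplitude of 1.35 ± 0.32. Egr1, an immediate early factor, had means of 11.2 CPM at CT4, 38.4 at CT8, 24.97 at CT12, 39.5 at CT16 and 6.50 at CT24. Its CT12 mean was below those at CT8 and CT16, between which the fitted peak fell. Klf10, a repressor that responds to glucose and growth factors, peaked at CT13.7 ± 0.801 h. At CT16 the leaders were Rgs16, Nr1d1 and Nr1d2.

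At CT20 Mfsd2a, which carries lysophosphatidylcholine into cells, read 5.81 and 4.27 CPM at CT4, 0.337 and 1.605 at CT8, 0.968 and 0.504 at CT12, 4.71 and 12.8 at CT16, 34.7 and 41.0 at CT20 and 10.8 and 61.8 at CT24. It was lowest at CT8 and CT12 and highest at CT20 and CT24, with an amplitude of 3.10 ± 0.38 on the log2 scale. Usp2 was the next leader, and Mup5 was high in a single library, with 0.0228 and 0 CPM at CT4, 0.0842 and 0.0292 at CT8, 0 and 0 at CT12, 0.0937 and 0.179 at CT16, 71.0 and 0 at CT20 and 0.0885 and 0.982 at CT24. At CT24 Noct (nocturnin), a phosphatase of NADPH known for its strong night rhythm in liver, read 31.9 and 26.7 CPM at CT4, 11.6 and 20.5 at CT8, 7.26 and 18.3 at CT12, 22.9 and 28.1 at CT16, 76.2 and 124 at CT20 and 102 and 83.6 at CT24. Its peak fell at CT22.5 ± 0.468 h. Thrsp, which drives fatty acid synthesis after feeding, read 436 and 419.5 CPM at CT4, 260 and 363 at CT8, 74.4 and 261 at CT12, 272 and 247 at CT16, 622 and 1077 at CT20 and 1112 and 2016 at CT24. Tsku, a secreted liver protein, peaked at CT22.6 ± 0.5257 h. Among transcripts of other kinds, 97 of the 419 genes of the CT12 window were not protein-coding, against 36 of 457 at CT24. Of all rhythmic genes 360 of 2410 were not protein-coding, and of all genes tested 5109 of 18664. The noncoding Gm45301 peaked at CT2.78 ± 0.946 h with an amplitude of 1.56 ± 0.39, Mup-ps18, a pseudogene of the Mup family, peaked at CT0.211 ± 1.07 h, and the numbered loci XLOC_024985 and XLOC_242728 peaked at CT8.46 ± 0.351 h and CT11.0 ± 0.671 h.

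Liver pathways were read from 18 lists of genes, 3 of them the clock lists, with 313 genes tested in all. Of these 104 passed the night against day test, 41 of them higher, and 170 had a 24 h rhythm. Over all genes 3.12% were higher at night, 4.35% lower and 12.9% rhythmic, and the counts of each list below are read against these shares. Members below the filter were 9 in number (Dbp, Tm7sf2, Amacr, Hspd1, Noc4l, Gstp1, Gpt, Gnmt and Cebpb), each listed at no more than 0.295 CPM in every SD library. Several of these are abundant liver genes, and why they are listed near 0 was not tested.

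**Figure D4:**
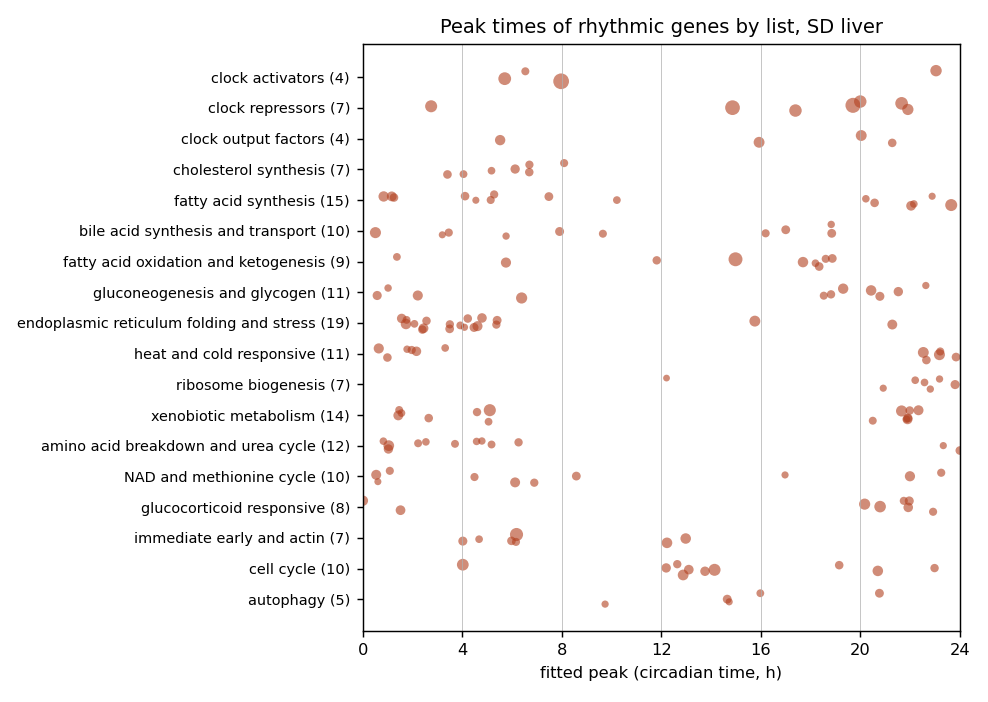
Fitted peak time (circadian time, h) of each gene with a 24 h rhythm in SD liver, 1 row per pathway list with the number of rhythmic genes in brackets and dot area growing with the log2 amplitude. Endoplasmic reticulum folding genes gather near CT4, cholesterol synthesis genes between CT4 and CT8, heat responsive genes near CT24 and glucocorticoid responsive genes between CT20 and CT24.

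Protein folding genes of the endoplasmic reticulum (ER) were mostly lower at night among those called. Of 30 genes tested, 14 were lower at night and 2 higher, against 4.35% and 3.12% of all genes, with a median log2 difference of -0.47 against 0.035 over all genes, and without replicate 1 of CT16 the counts were 14 and 3. Calr (calreticulin), a calcium-binding chaperone of glycoproteins, read 1283 and 1329.6 CPM at CT4, 1173 and 1231 at CT8, 1049 and 880 at CT12, 598 and 589.7 at CT16, 659.6 and 639 at CT20 and 1183 and 803 at CT24. Its day libraries were all above its night libraries (-1.11 ± 0.12 (SE), adjusted p = 0.000182). Sdf2l1, an ER chaperone partner, had the largest fall of the called ER genes (-1.54 ± 0.23 (SE), adjusted p = 0.00188), with 61.9 to 85.3 CPM by day and 20.4 to 33.2 by night. The disulfide isomerases Pdia3, Pdia4 and Pdia6, which join cysteines in new proteins, were lower at night, with differences of -0.87 ± 0.11, -1.07 ± 0.16 and -0.85 ± 0.12. The chaperones Hyou1 and Hsp90b1 were also lower (-0.89 ± 0.18 and -0.85 ± 0.18). Hspa5 (BiP), the main ER chaperone, read 1244 and 1290.3 CPM at CT4, 1058 and 1837 at CT8, 517 and 789.9 at CT12, 647 and 813 at CT16, 1251 and 1329 at CT20 and 2668 and 1622 at CT24. It was lowest at CT12 and CT16 and higher at CT20 and CT24. It was rhythmic (peak at CT1.57 ± 0.819 h), while the night against day test did not pass (-0.57 ± 0.21 (SE), adjusted p = 0.128). Of the 19 rhythmic members, 14 peaked in the CT4 window. Going the other way were Herpud1, which helps remove misfolded proteins (1.04 ± 0.16 (SE), adjusted p = 0.00273, peak at CT21.3 ± 0.580 h), and Trib3 (1.79 ± 0.33 (SE), adjusted p = 0.00728). In CON, 18 of 30 were lower and 1 higher at night, against 6.22% and 4.6% of all CON genes.

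Cytosolic heat shock genes were highest near CT24. Of 15 heat and cold responsive genes, 14 differed between the 6 times, against 7.75% of all genes, and 11 had a 24 h rhythm. Hspa8, the constitutive HSP70, read 514 and 672 CPM at CT4, 849.6 and 857 at CT8, 690.1 and 883 at CT12, 720.4 and 781 at CT16, 1149.6 and 1321 at CT20 and 2051 and 2001 at CT24. Both CT24 libraries were above all others. Hsph1, its nucleotide exchange factor, read 35.0 and 46.7 CPM at CT4, 50.5 and 71.3 at CT8, 22.8 and 41.3 at CT12, 25.2 and 22.4 at CT16, 68.4 and 89.1 at CT20 and 149 and 131 at CT24, and Hspa1b, the inducible HSP70, read 7.93 and 12.8 CPM at CT4, 15.3 and 8.40 at CT8, 14.2 and 14.5 at CT12, 8.02 and 13.2 at CT16, 31.5 and 44.8 at CT20 and 66.6 and 78.4 at CT24. Both were highest at CT24 with CT20 in between, and Hsph1 was lowest at CT16. Hspa1b has a near-identical copy in Hspa1a, so the split between these genes is uncertain. Bag3, a cochaperone, and Chordc1, a partner of HSP90, peaked at CT0.994 ± 1.36 h and CT23.8 ± 0.762 h. The rhythm of Bag3 was near the threshold (adjusted p = 0.0496 in edgeR) and was lost in 9 of the 12 fits with 1 library left out. Cirbp, the cold-inducible RNA-binding protein, had the opposite profile, with 14.2 CPM at CT16 and 4.33 CPM at CT24, and its test over the 6 times gave an adjusted p of 0.0098. The median of the list relative to each gene's mean was -0.22 and -0.022 at CT4, -0.045 and 0.001 at CT8, -0.39 and -0.17 at CT12, -0.67 and -0.37 at CT16, 0.23 and 0.35 at CT20 and 0.81 and 0.84 at CT24 on the log2 scale. In CON the same median was 0.63 and 0.82 at CT24. A 24 h rhythm was found in CON in 9 of the 15 genes, against 9.13% of all CON genes. In SD the night against day test passed for 4 of the 15, each lower at night, among them Hsp90aa1 (-0.75 ± 0.14 (SE), adjusted p = 0.0065). Without replicate 1 of CT16 it passed for 2 higher and 4 lower.

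A 12 h term was tested beside the 24 h terms. At an unadjusted p under 0.05 the 12 h terms passed in 14 of the 15 heat and cold genes and in 10.2% of all genes. After adjustment edgeR called 0 genes, 1748 without replicate 2 of CT16, and DESeq2 134. The smallest p belonged to Palld, an actin-bundling protein, which read 102 and 103 CPM at CT4, 109 and 126 at CT8, 93.6 and 91.5 at CT12, 73.4 and 64.4 at CT16, 105 and 120 at CT20 and 202 and 183 at CT24, with an adjusted p of 0.0903. Hspa8 and Sik1, a kinase induced by cAMP, came next (0.149 and 0.149). Dnajb9, an ER cochaperone, had means of 34.4, 80.6, 42.4, 56.9, 112 and 127 CPM from CT4 to CT24, with highs at CT8 and CT24 and an adjusted p of 0.155. Cyp4a10 and Cyp4a14, fatty acid hydroxylases and targets of PPAR alpha, had their lowest means at CT12. Cyp4a14 read 235 and 186 CPM at CT4, 377 and 274 at CT8, 46.5 and 21.1 at CT12, 192 and 388 at CT16, 408 and 189.9 at CT20 and 156 and 261 at CT24, and both CT12 libraries were below all others.

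All the cholesterol synthesis genes that passed the night against day test were lower at night. Of 23 genes tested, 7 passed, against 4.35% of all genes lower (5 without replicate 1 of CT16), with a list median of -0.38. Pmvk, which phosphorylates mevalonate phosphate, read 32.3, 32.3, 39.1 and 47.9 CPM in the day libraries and 19.0, 15.9, 17.1 and 13.1 CPM in the night libraries (-1.30 ± 0.13 (SE), adjusted p = 0.000134). Sc5d, a late step of the pathway, read 643 and 724 CPM at CT4, 732 and 901 at CT8, 629 and 628 at CT12, 424 and 402 at CT16, 412 and 419.6 at CT20 and 559 and 443 at CT24, a difference of -0.94 ± 0.10 (SE), adjusted p = 0.000215. Its CON difference was -0.49 ± 0.11, and the difference between the conditions had an unadjusted p of 0.00871 and an adjusted p of 0.957. Dhcr7, the last reductase of the pathway, Ebp, its sterol isomerase, and Insig1, which holds back the factor SREBP, were lower at night (-0.85 ± 0.14, -0.62 ± 0.088 and -0.78 ± 0.14). All 7 rhythmic members peaked in the CT4 or CT8 window.

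Of 19 fatty acid synthesis genes 15 were rhythmic, against 12.9% of all genes, in several phases. At night 2 were higher and 5 lower (1 and 5 without replicate 1 of CT16). Acly, which makes cytosolic acetyl-CoA from citrate, read 559.6 and 624 CPM at CT4, 660.5 and 725 at CT8, 357 and 395 at CT12, 293 and 305 at CT16, 471 and 449 at CT20 and 483 and 559 at CT24, a night minus day difference of -0.88 ± 0.11 (SE), adjusted p = 0.00068. Acss2, which makes acetyl-CoA from acetate, and Gpam, the first step of triglyceride synthesis, were lower at night (-1.02 ± 0.13 and -0.76 ± 0.097). Others were highest at CT24. Srebf1, the master factor of the pathway, read 409.7 and 505 CPM at CT4, 343 and 420.3 at CT8, 194 and 218 at CT12, 266 and 187 at CT16, 366 and 582 at CT20 and 530.4 and 911 at CT24, and Fasn, the synthase, had means of 713 CPM at CT12 and 1908 CPM at CT24 and peaked at CT1.26 ± 1.22 h. The rhythm call of Fasn was lost in 8 of the 12 fits with 1 library left out. The night against day test did not pass for Srebf1 or Fasn. Pklr, pyruvate kinase of the liver, was higher at night (0.79 ± 0.16 (SE), adjusted p = 0.0109) with a CON difference of -0.025 ± 0.22, and the unadjusted p between conditions was 0.0131 (adjusted p = 0.971). Acaca, the carboxylase that commits acetyl-CoA to fat, was higher at night with all libraries (0.50 ± 0.12 (SE), adjusted p = 0.0298) and not without replicate 1 of CT16 (adjusted p = 0.0501).

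Some genes of fat burning were higher at night. Of 25 genes of fatty acid oxidation and ketogenesis, 6 were higher and 1 lower, against 3.12% and 4.35% of all genes, and without replicate 1 of CT16 8 and 1. Cpt1a, the gate for fatty acids into mitochondria, read 394 and 329.8 CPM at CT4, 316 and 323 at CT8, 486 and 430.3 at CT12, 722 and 791 at CT16, 811 and 651 at CT20 and 452 and 428 at CT24. All 4 night libraries were above the day libraries (1.04 ± 0.12 (SE), adjusted p = 0.000305), with a peak at CT18.3 ± 0.456 h. Ppara, the receptor that drives the pathway, was higher by 0.78 ± 0.089. The matrix enzymes Acadm, Acadl, Hadha and Ehhadh did not pass, with differences of -0.069 to 0.10. Pdk4, which spares glucose by blocking pyruvate dehydrogenase, was the member called lower (-1.70 ± 0.22 (SE), adjusted p = 0.000811). Fgf21, a fasting hormone, read 0.0683 and 0.0585 CPM at CT4, 1.54 and 0 at CT8, 0.363 and 2.22 at CT12, 0.780 and 14.4 at CT16, 0.8289 and 0.227 at CT20 and 0.295 and 0 at CT24. Its replicates at CT16 differed widely, and the night against day test did not pass (adjusted p = 0.167). Plin2, a coat protein of lipid droplets, peaked at CT11.8 ± 0.617 h in SD and at CT7.18 ± 0.885 h in CON. The difference between the conditions in night minus day was 0.67 ± 0.18 (unadjusted p = 0.00142, adjusted p = 0.765).

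**Figure D5:**
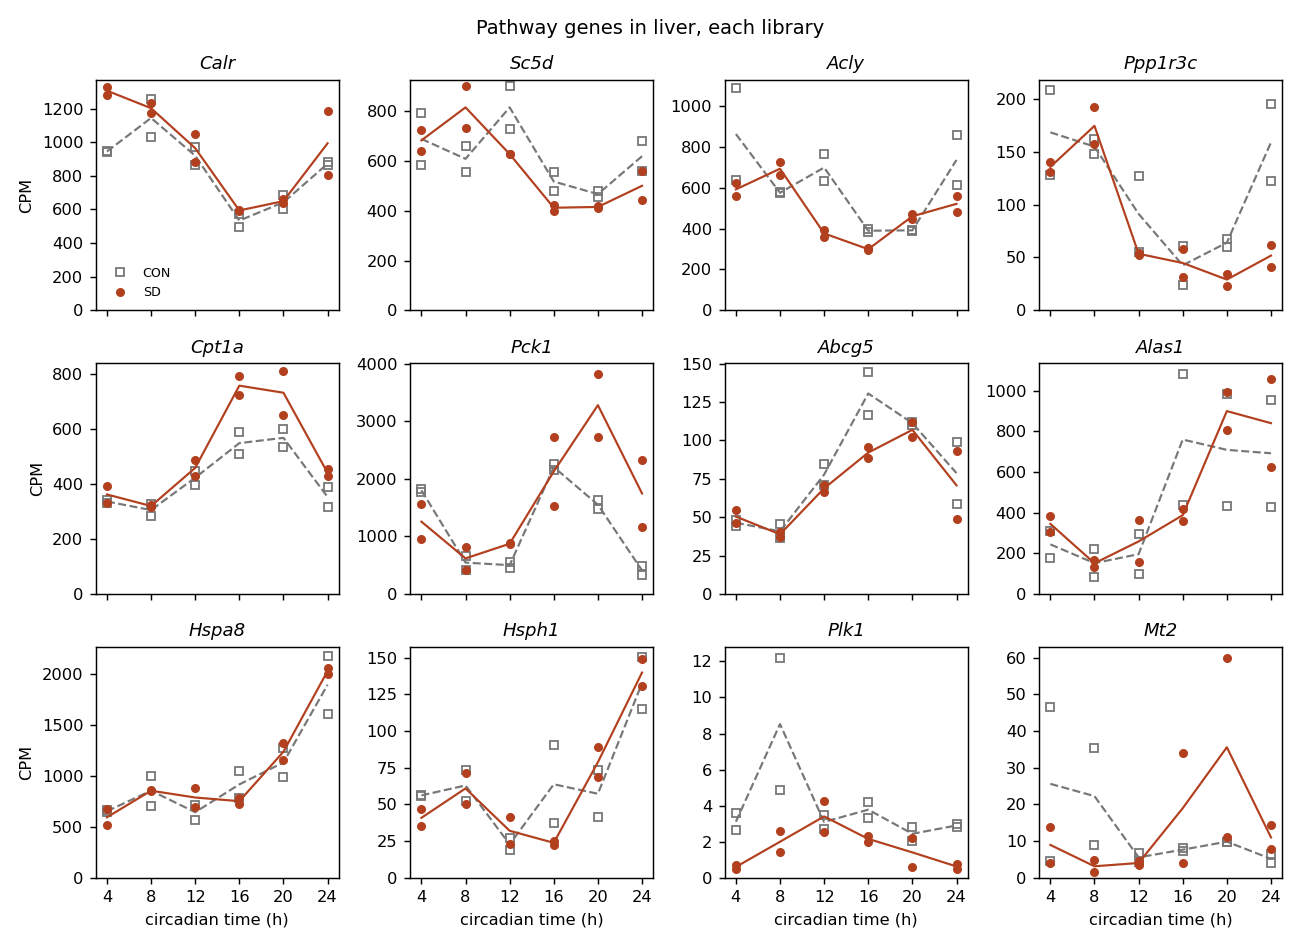
Levels of 12 pathway genes in the liver by circadian time (h) in CPM on linear axes, with SD libraries as filled circles and CON libraries as open squares, 2 per time, and lines through the means. Calr, Sc5d, Acly and Ppp1r3c were higher by day, Cpt1a, Pck1, Abcg5 and Alas1 by night, Hspa8 and Hsph1 at CT24, Plk1 at CT12 and Mt2 at CT20 in SD.

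Genes of glucose release and storage were called in both directions. Of 18 genes of gluconeogenesis and glycogen, 6 were higher at night and 2 lower (6 and 1 without replicate 1 of CT16), against 3.12% and 4.35% of all genes, and 11 were rhythmic, 6 of them in the CT20 window. Pck1, the rate-limiting enzyme of gluconeogenesis, read 1564 and 949.7 CPM at CT4, 417 and 822 at CT8, 869 and 878 at CT12, 1533 and 2722 at CT16, 3826 and 2728 at CT20 and 1157 and 2335 at CT24, a difference of 1.504 ± 0.31 (SE), adjusted p = 0.0136. It rose from CT8 to CT20 in means of 619 to 3278 CPM. Slc2a2 (GLUT2), the glucose transporter of hepatocytes, and Slc37a4, which moves glucose 6-phosphate into the ER, were higher by 0.88 ± 0.17 and 0.81 ± 0.17. Gys2, the liver glycogen synthase, and Ugp2, which makes its substrate, were higher by 0.88 ± 0.13 and 0.78 ± 0.16. Pfkfb3, an activator of glycolysis, was higher by 1.65 ± 0.34. Ppp1r3c, which brings a phosphatase to glycogen, went the other way, with 131 to 192 CPM by day and 23.4 to 57.8 by night (-2.17 ± 0.21 (SE), adjusted p = 0.000101). G6pc, the last enzyme of glucose release, did not pass (-0.19 ± 0.35 (SE), adjusted p = 0.789).

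Bile acid genes were called both higher and lower at night, and transporters were not tested against enzymes. Of 19 tested, 4 were higher at night and 5 lower, and without replicate 1 of CT16 5 and 3. With all libraries, those higher were transporters. Abcg5 and Abcg8, which pump cholesterol into bile as one complex, were higher by 1.07 ± 0.18 and 1.07 ± 0.22, Abcb4, the phospholipid pump, by 0.72 ± 0.094, and Slco1b2, an uptake carrier, by 0.52 ± 0.13. Abcg5 read 54.8 and 46.1 CPM at CT4, 37.4 and 40.5 at CT8, 71.0 and 66.7 at CT12, 95.5 and 88.7 at CT16, 112 and 102 at CT20 and 48.7 and 92.9 at CT24. The lower genes were mainly enzymes. Cyp8b1, which sets the share of cholic acid, and Akr1d1, a reductase of the pathway, were lower (-0.997 ± 0.23 and -0.67 ± 0.13), and Abcb11, the bile salt pump, was the lower transporter (-0.44 ± 0.12 (SE), adjusted p = 0.0485). The calls of Cyp8b1 and Abcb11 were lost without replicate 1 of CT16. Cyp7a1, the rate-limiting enzyme of bile acid synthesis, read 549.7 and 404 CPM at CT4, 147 and 177 at CT8, 67.3 and 179.7 at CT12, 163 and 141 at CT16, 308 and 472 at CT20 and 548 and 437 at CT24. It was low from CT8 to CT16 and high at CT20, CT24 and CT4, and was rhythmic (adjusted p = 0.000581, peak at CT0.513 ± 0.538 h) without a night minus day difference past the threshold (-0.29 ± 0.25 (SE), adjusted p = 0.525). Its peak in CON was at CT21.2 ± 2.09 h. Abcc2, a conjugate pump, differed by 0.21 ± 0.12 in SD and 0.74 ± 0.12 in CON, an unadjusted p of 0.00599 for the difference (adjusted p = 0.901).

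Rhythmic drug metabolism genes peaked from CT20 to CT4. Of 21 genes tested, 14 were rhythmic, against 12.9% of all genes, with 6 in the CT20 window and 4 and 4 in those of CT24 and CT4. At night 4 were higher and 5 lower (4 and 4 without replicate 1 of CT16). Alas1, the rate-limiting enzyme of haem synthesis, read 307 and 383 CPM at CT4, 168 and 135 at CT8, 156 and 362 at CT12, 418 and 358 at CT16, 807 and 992 at CT20 and 624 and 1056 at CT24, and peaked at CT21.7 ± 0.539 h. Por, which passes electrons to the cytochromes P450, was also higher at night (0.87 ± 0.21 (SE), adjusted p = 0.0275). Nr1i3 (CAR), a drug receptor, and Cyp2a5 were higher at night by 0.59 ± 0.09 and 0.68 ± 0.18. Cyp2b10, a target of CAR, had the opposite phase, as given above, with a peak at CT5.11 ± 0.743 h. Gsta3, a glutathione transferase, Ces1d, a carboxylesterase, and Aldh1a1, an aldehyde dehydrogenase, were lower at night (-0.83 ± 0.10, -0.62 ± 0.11 and -0.65 ± 0.12). Cyp3a11 and Cyp1a2, which are abundant, did not pass (-0.34 and -0.12).

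Called genes of amino acid breakdown were lower at night. Of 19 genes of amino acid breakdown and the urea cycle, 5 passed the night against day test, each lower at night against 4.35% of all genes (4 without replicate 1 of CT16). Ass1, a urea cycle enzyme, differed by -0.69 ± 0.16 (SE), adjusted p = 0.0198, and Hal, which breaks down histidine, by -0.89 ± 0.16 (SE), adjusted p = 0.00643. Tat, the tyrosine aminotransferase, read 1094 and 1102 CPM at CT4, 576 and 1112 at CT8, 459 and 339 at CT12, 387 and 435 at CT16, 1012 and 1314 at CT20 and 1472 and 2227 at CT24, with the widest swing of the list (amplitude 1.15 ± 0.17, peak at CT1.05 ± 0.565 h). The lower genes include Cps1, Hal and Gls2, which are also on the list of periportal hepatocyte markers. Periportal markers summed to 9670.4 to 11742 CPM by day and 7661 to 8374 by night, and pericentral markers to 5951 to 8158 and 7981 to 9170.4 CPM. Of the 8 periportal markers 4 were called lower (3 without replicate 1 of CT16) and of the 10 pericentral 1 higher (Slc1a2), and the part of the zones in the result was not tested. In the NAD and methionine list of 16, 2 were higher and 4 lower. Bhmt, Cbs and Cth, steps of homocysteine use, were lower at night (-0.86 ± 0.16, -0.84 ± 0.12 and -0.75 ± 0.14). Nampt, the rate-limiting enzyme of NAD salvage, was higher (0.86 ± 0.16 (SE), adjusted p = 0.00729) and peaked at CT22.0 ± 0.425 h.

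Glucocorticoid responsive genes peaked between CT20 and CT24. All 8 rhythmic genes of the 15 fell in these windows, while the night against day test passed for Mt1 with all libraries and for 4 genes without replicate 1 of CT16. Fkbp5, a cochaperone of the receptor, had means of 44.3 CPM at CT8 and 139 CPM at CT24 and peaked at CT21.9 ± 0.729 h. Tsc22d3 (GILZ), an inhibitor of inflammation, read 155 and 116 CPM at CT4, 66.9 and 101 at CT8, 48.2 and 52.6 at CT12, 71.4 and 92.6 at CT16, 120.3 and 196 at CT20 and 237 and 203 at CT24. The metallothioneins bind zinc and copper. Mt2 read 13.8 and 4.07 CPM at CT4, 1.54 and 4.73 at CT8, 4.57 and 3.51 at CT12, 3.93 and 34.0 at CT16, 59.95 and 11.2 at CT20 and 14.3 and 7.73 at CT24 in SD and 4.61 and 46.6 CPM at CT4, 35.5 and 9.04 at CT8, 4.44 and 6.71 at CT12, 7.27 and 8.06 at CT16, 9.82 and 9.88 at CT20 and 6.39 and 3.94 at CT24 in CON. In SD the night values were unequal, with replicate 1 of CT16 and replicate 2 of CT20 inside the day range, and in CON the highest values were those of replicate 2 at CT4 and replicate 1 at CT8. Night minus day was 1.995 ± 0.51 for Mt1 and 2.24 ± 0.69 for Mt2 in SD and -0.93 ± 0.45 and -1.57 ± 0.57 in CON. The unadjusted p of the difference was 0.00127 and 0.00141, and neither passed after adjustment (adjusted p = 0.765 and 0.765).

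Of the early response and cytoskeleton genes, Tubb2a had the largest fall. Of 20 genes, 5 passed the night against day test, each lower at night against 4.35% of all genes, and these were Btg2 (-0.59 ± 0.16), Actb, Tuba1c (-1.04 ± 0.18), Tubb2a and Tubb4b (-1.04 ± 0.19). The call of Btg2 was lost without replicate 1 of CT16. Actb (beta actin), often used as a reference gene, read 1800.1 and 1877 CPM at CT4, 1931 and 2109 at CT8, 1796 and 1750 at CT12, 1203 and 1159 at CT16, 1203 and 1162 at CT20 and 1756 and 1456 at CT24, a difference of -0.80 ± 0.099 (SE), adjusted p = 0.000578 against -0.42 ± 0.081 in CON. For Tubb2a the CON difference was -2.53 ± 0.13. The difference between conditions had an unadjusted p of 0.00696 for Actb and 0.00196 for Tubb2a (adjusted p = 0.946 and 0.765). The early factors Junb and Egr1 peaked at CT13.0 ± 0.644 h and CT12.2 ± 0.961 h, while Fos and Fosb had means of no more than 1.92 CPM at any time.

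Among cell cycle genes the genes of mitosis peaked near CT12. Of 17 tested, 10 were rhythmic in SD, against 12.9% of all genes, 5 of them in the CT12 window, and 3 in CON. Mki67, a marker of dividing cells, read 7.56 and 4.04 CPM at CT4, 8.84 and 16.8 at CT8, 16.6 and 26.5 at CT12, 16.4 and 14.2 at CT16, 12.2 and 6.62 at CT20 and 8.08 and 5.61 at CT24. It peaked at CT13.1 ± 0.849 h with an amplitude of 0.84 ± 0.19. Plk1, a kinase of mitosis, read 0.501 and 0.702 CPM at CT4, 1.40 and 2.60 at CT8, 2.54 and 4.26 at CT12, 2.34 and 1.97 at CT16, 2.19 and 0.6247 at CT20 and 0.767 and 0.491 at CT24, and Ccnb1 and Cdc20, which drive entry into and exit from mitosis, peaked at CT14.1 ± 0.875 h and CT12.2 ± 1.01 h. In CON, Plk1 read 2.62 and 3.59 CPM at CT4, 12.2 and 4.85 at CT8, 2.71 and 3.48 at CT12, 3.33 and 4.23 at CT16, 2.82 and 2.06 at CT20 and 2.80 and 2.999 at CT24. The unadjusted p of the SD minus CON difference in night minus day was 0.00314 for Ccnb1 and 0.00868 for Plk1, and the adjusted p was 0.827 and 0.957. Of the genes that brake the cycle, Wee1, a kinase that delays mitosis and a known clock target, was higher at night (1.41 ± 0.21 (SE), adjusted p = 0.00191), and Cdkn1a (p21) was lower (-2.21 ± 0.20 (SE), adjusted p = 6.15e-05). Replication genes such as Mcm5, Mcm6 and Pcna did not pass, with differences of -0.50, -0.46 and -0.043. Lymphocyte markers summed to 35.4 to 58.1 CPM by day and 53.7 to 70.6 by night, and their part was not tested. Medians relative to each gene's mean (log2) were also taken by library. The cell cycle list stood at -0.026 and -0.573 at CT4 and 0.021 and 0.628 at CT12. Lymphocyte markers stood at -0.207 and -0.401 at CT4 and 0.161 and 0.384 at CT12. Kupffer cell markers stood at -0.129 and -0.404 at CT4 and 0.308 and 0.129 at CT12. As means of the 2 libraries at CT16 and CT20, the cell cycle list stood at 0.193 and -0.012. Lymphocyte markers then stood at -0.091 and 0.203, and Kupffer cell markers at -0.115 and 0.228.

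Of 14 autophagy genes, 3 passed the night against day test, each higher at night, against 3.12% of all genes (4 without replicate 1 of CT16). Ulk1, the starter kinase, read 61.6 and 64.9 CPM at CT4, 84.7 and 62.2 at CT8, 139.9 and 136 at CT12, 139.5 and 132 at CT16, 101 and 105 at CT20 and 47.9 and 62.6 at CT24 and peaked at CT14.6 ± 0.596 h, Bnip3, a receptor for mitochondrial removal, was higher by 0.83 ± 0.13, and the call of Atg14 was lost without replicate 1 of CT16. The core genes Atg5, Atg7 and Becn1 did not pass (-0.06, -0.25 and 0.091). Of 24 ribosome biogenesis genes edgeR called 0 between night and day, with 7 at an unadjusted p under 0.05 and 1 in DESeq2, while without replicate 1 of CT16 edgeR called 2, both higher at night. A 24 h rhythm was found in 7 of the 24, 5 of them in the CT24 window. Rrp12, which helps export ribosomal subunits, had the widest of these, from 12.03 CPM at CT12 to 37.3 CPM at CT24 (amplitude 0.70 ± 0.13). Polr1a and Polr1b, subunits of RNA polymerase I, peaked at CT22.6 ± 0.264 h and CT22.2 ± 0.591 h.

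The E-box was also counted ahead of rhythmic genes by their peak. Promoters with CACGTG on either strand made up 15.9% of those of genes peaking in the CT20 window and 13.3% at CT24. The shares were 10.1% at CT4, 8.07% at CT8, 9.82% at CT12 and 10.8% at CT16, beside 9.17% for all protein-coding genes tested. The shares were largest in the CT20 and CT24 windows, and the differences were not tested.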

How the data were processed

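Total RNA of liver was sequenced with a stranded protocol in 12 SD and 12 CON mouse libraries, 2 per circadian time. The authors trimmed reads with Trim Galore 0.6.4, aligned them to GRCm38 with HISAT2 2.1.0, kept a mapping quality of 60 with Samtools 1.9 and deposited raw counts per gene from featureCounts 1.6.4 for 54833 features. Reads that fit several places were thus removed, which lowers near-identical copies. Symbols and positions of genes came from GENCODE M21 for 49326 of the 49585 Ensembl features, and the other 5248 were numbered loci. The table of the series held the same counts as the library files in 96 of 96 columns.

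Groups were taken from sample titles. Genes kept by filterByExpr over the 6 times were tested in SD libraries in edgeR 4.0.16 (R 4.3.3) by its quasi-likelihood F-test with TMM factors. The p-values were adjusted over all tested genes by Benjamini-Hochberg. A fit with 1 mean per time tested night (CT16 and CT20) minus day (CT4 and CT8), any difference between the 6 times, and the 12 h terms. The 24 h rhythm was tested in a separate fit that held only a mean and the sine and cosine of a 24 h period. Other differences between times enter the error of that fit. The SD minus CON difference in night minus day was tested over the 24 libraries. The labels do not say whether the replicates came from separate animals, while the authors describe them as biological. The p-values measure the spread between libraries. Peak time and amplitude, with SE, came from a least squares fit of the 24 h terms to log2 CPM with a prior count of 2. CPM is the count over the library total, and the SE of a log2 difference was its size divided by the root of F. At 32.0 M counts a gene at 1 CPM rests on about 32.0 counts, and genes below 1 CPM rest on fewer. The part of counting error in the spread between libraries was not tested.

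Named genes were the 8 largest rises and 8 largest falls among protein-coding genes with an adjusted p under 0.05, a mean of 5 CPM or more and no overlap between day and night, the 3 protein-coding genes of largest amplitude in each peak window, the 4 of other biotypes, the 3 of smallest p in the 12 h test and in the SD against CON difference, and members of the gene lists. The libraries, lists and naming rule were chosen with earlier results of these data known. Alternatives were library totals or DESeq2 size factors, DESeq2 1.42.0, no filter, leaving out each library, a block for the replicate number, 2 groups of 4, both conditions in 1 fit, limma 3.58.1 and a JTK_CYCLE procedure in Python 3.11.15 (numpy 2.4.6, pandas 2.3.3, scipy 1.17.1). The test of the cosine and sine terms between SD and CON was added after seeing the data. The night against day test, the 24 h rhythm test and the JTK_CYCLE procedure were tried on simulated data, and the other tests were not. A few members of the gene lists are counted but not reported by name here.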

Additional observations from a re-analysis of the deposited data

Results flagged for a closer look

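In 40 groups of 4 libraries, each of day or night libraries of SD liver for a named gene or a library measure, a sample was set apart where its gap to the nearest other library exceeded Dixon's critical share of the group's range at the 95% level. This happened in 3 groups, and chance gives about 1 in 20. Rgs16 in replicate 1 of SD at CT8 stood at 3.114 CPM, while the other day libraries lay between 0.2048 and 0.5922 CPM, a gap of 0.867 of the range. It was still below the lowest night library, which the naming rule required. Angptl4 in replicate 2 of SD at CT16 stood at 163.2 CPM, with the other 3 night libraries between 70.76 and 72.74 CPM and a gap of 0.979 of the range. Replicate 1 of SD at CT4 held 43.9 M counts against 34.18 to 35.65 M in the other day libraries, a gap of 0.849 of the range. It is the deepest of the 12 SD libraries. The explanations of these 3 values were not tested.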

How the results depend on the processing

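The count of night against day genes was 1393 and lay between 1240 and 1818 with library totals alone, DESeq2 size factors, DESeq2, a replicate block (1240) and both conditions in 1 fit. It was 2397 without a filter, where 30268 genes were tested, and 677 with 2 groups of 4 libraries, which uses 8 libraries. Leaving out 1 library gave 552 (without replicate 2 of CT4) to 3963 (without replicate 2 of CT16). Over 1.5 times below the full count were also the fits without replicate 1 of CT4 (762), replicate 1 or 2 of CT8 (699 and 775) and replicate 1 or 2 of CT20 (556 and 771). Without replicate 2 of CT16 the library that stands apart is alone at its time, and is assumed to vary like the other groups.

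The 24 h rhythm count of 2410 became 3857 without a filter and 347 by JTK_CYCLE, and lay between 2221 (replicate block) and 3587 (DESeq2) with the other settings, limma (2488) included. Leaving out 1 library gave 1531 (without replicate 2 of CT24) to 3438 (without replicate 1 of CT16). Genes that differed between the 6 times numbered 1447, 4502 without a filter, 3179 with DESeq2, and 711 (without replicate 1 of CT12) to 5714 (without replicate 2 of CT16). The 12 h count of 0 became 1057 without a filter, 5 with a replicate block, 134 with DESeq2, and 0 to 1748 (without replicate 2 of CT16) on leaving out 1 library. The SD minus CON count of 0 became 206 without a filter, 9 with DESeq2, and 0 to 1 (without replicate 2 of SD at CT8). The CON night against day count of 2077 became 3212 without a filter and 1002 (without replicate 2 of CT4) to 1973, and was 1298, 1348, 1172 and 1147 without replicate 1 or 2 of CT16 and replicate 1 or 2 of CT20. With library totals alone 69.0% of the CON calls were higher at night against 42.5% with TMM. Calls in the gene lists numbered 104, and 64 (without replicate 2 of CT4) to 138 (without replicate 2 of CT16), with 66 without replicate 1 of CT20. The cause of these moves was not tested.

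Same-numbered SD libraries did not deviate together (r of their deviations between times -0.106 to 0.115 over 15 pairs of times), so the numbers only name libraries and the block is an alternative. For the genes of the lists and the naming rule with a night against day call, 112 genes gave 2128 values, of which 1867 kept direction and call, 261 lost the call (in 53 genes) and 0 changed sign. Of the pathway and naming rule genes named in the report, the night against day call was lost without at least 1 of the 12 libraries for Abcb11, Abcg8, Acaca, Akr1d1, Aldh1a1, Ass1, Atg14, Btg2, Ces1d, Cps1, Cyp2a5, Cyp8b1, Gls2, Hsp90b1, Hyou1, Lpin1, Mt1, Pck1, Pfkfb3, Pklr, Por, Slc2a2, Slc37a4, Slco1b2 and Ugp2. Kept in all of those fits but lost with 2 groups of 4 libraries were the calls of Alas1, Hlf, Hsp90aa1, Nampt, Per1 and Per2. With both conditions in 1 fit those of Alas1 and Bhmt were lost. For the 24 h rhythm, 185 genes gave 3515 values, of which 3070 kept the call and 445 lost it (in 159 genes). Leaving out 1 library lost the rhythm call in 9 of 12 fits for Bag3, 8 for Fasn, 8 for Hspa8 and 7 for Mt2. Under JTK_CYCLE the calls of Arntl, Per1, Cyp7a1 and Tat, among others, were lost, while those of Rgs16, Nr1d1, Nr1d2 and Thrsp were kept. Each library held 32.0 M counts or more and each time had 2 libraries, and which of these limits the results more was not tested.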

Other observations

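A few markers of cell types other than hepatocytes passed the night against day test in the SD liver. Kupffer cell markers summed to 616 to 891 CPM in the day libraries and 764 to 986 CPM in the night libraries, and 0 of the 8 were called by edgeR, with 1 at an unadjusted p under 0.05 and 1 called in DESeq2 (edgeR called 1 without replicate 1 of CT16). Endothelial markers summed to 402 to 457 CPM by day and 443 to 550.1 CPM by night. Lyve1, a receptor of sinusoidal endothelium, was the endothelial marker called higher at night (0.56 ± 0.12 (SE), adjusted p = 0.015), with 2 called without replicate 1 of CT16. Erythroid markers summed to 202 to 327 CPM by day and 142 to 207 CPM by night, and 0 of the 5 were called by edgeR (4 at an unadjusted p under 0.05, 2 in DESeq2). Sox9, a marker of bile duct cells, was lower at night (-1.23 ± 0.14 (SE), adjusted p = 0.000282), and Ptprc (CD45), carried by all white blood cells, was higher (0.43 ± 0.12 (SE), adjusted p = 0.0495). The call of Ptprc was lost without replicate 1 of CT16, as on omitting any of 10 among the 12 libraries, and that of Lyve1 on omitting any of 4.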
